A study of Mus musculus with 6 samples.

Results

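The genes described here are 10 members of interleukin-1, interleukin-6 and tumor necrosis factor signaling, of 54532 genes in the expression table. They were listed by symbol and matched through their Ensembl identifiers in GENCODE release M21. The 5 ligands are Il1b, Il18, Il33, Il6 and Tnf. The 5 receptors are Il1r1, Il1rl1, Il6st, Osmr and Lifr. Tnf is not an interleukin and was included as an inflammatory cytokine beside Il1b and Il6. RNA was sequenced from heart tissue of male C57BL/6 mice, 6 to 8 weeks old at the start, with 1 mouse per library. The study's methods name the tissue as left ventricular myocardium, whereas the sample labels say only heart. For 12 weeks, the 3 HFpEF mice (heart failure with preserved ejection fraction) were fed a diet whose fat supplied 60% of kcal and drank water with 0.5 g/L L-NAME, which inhibits nitric oxide synthase. The 3 Chow mice were kept on normal chow and plain water. Diet and L-NAME were given together, so their separate contributions cannot be told apart. No mouse in these groups carried a transgene or a vector.

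Interleukin-1 family cytokines signal through paired receptors that recruit the adaptor Myd88 and release NF-kB into the nucleus. Il1b and Il18 are made as precursors that caspase-1 cleaves within an inflammasome, whereas Il33 is stored in the nuclei of stromal and endothelial cells and is released on damage. Interleukin-6 family cytokines share the signal-transducing subunit gp130, encoded by Il6st, which pairs with a second chain such as the oncostatin M receptor or the leukemia inhibitory factor receptor and activates JAK kinases and Stat3. In the heart, both families are known for their roles in inflammation after injury, in fibrosis and in cardiomyocyte growth.

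The ligands on which the results turn are Il33, the most abundant one, and Il1b and Il6, which were near the detection limit in most libraries, so the genomic sequence before their start sites is shown. The 250 bases upstream of each RefSeq start were read from RefSeq sequence on GRCm38.p6, 5' to 3' on the gene's strand, and none of the windows shown overlaps an annotated exon. Capitals mark matches to 1 of 4 letter patterns searched on both strands, namely GGANTTTCC (NF-kB), TTCNNNGAA (STAT), TTGCNNAA (C/EBP) and TGANTCA (AP-1).
Il6, chr5:30012864-30013113, plus strand: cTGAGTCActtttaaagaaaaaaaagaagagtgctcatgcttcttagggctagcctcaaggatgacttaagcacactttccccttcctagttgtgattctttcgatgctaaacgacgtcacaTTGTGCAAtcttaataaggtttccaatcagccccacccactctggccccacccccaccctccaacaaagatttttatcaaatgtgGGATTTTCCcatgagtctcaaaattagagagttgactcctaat
Il33, first start, chr19:29924863-29925112, plus strand: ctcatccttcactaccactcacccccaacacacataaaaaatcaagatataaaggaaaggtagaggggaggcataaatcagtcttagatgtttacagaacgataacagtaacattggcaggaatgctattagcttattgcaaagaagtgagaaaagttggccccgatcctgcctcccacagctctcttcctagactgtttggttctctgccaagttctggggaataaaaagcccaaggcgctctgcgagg
Il33, second start, chr19:29945540-29945789, plus strand: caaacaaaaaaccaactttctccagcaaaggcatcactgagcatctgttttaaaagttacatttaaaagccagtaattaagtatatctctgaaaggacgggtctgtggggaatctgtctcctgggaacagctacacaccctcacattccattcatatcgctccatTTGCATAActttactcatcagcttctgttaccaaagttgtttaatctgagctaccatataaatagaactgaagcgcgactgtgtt
Il1b, chr2:129371140-129371389, minus strand: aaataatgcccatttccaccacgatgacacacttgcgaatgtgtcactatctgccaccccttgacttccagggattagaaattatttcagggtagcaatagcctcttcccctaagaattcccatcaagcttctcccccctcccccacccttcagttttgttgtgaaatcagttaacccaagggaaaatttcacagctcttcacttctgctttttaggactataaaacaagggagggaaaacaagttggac
The Il6 window held 3 matches, which were the NF-kB letters GGATTTTCC 43 to 35 bases before the start, the C/EBP letters on the opposite strand 128 to 121 bases before it, and the AP-1 letters TGAGTCA 249 to 243 bases before it. The second Il33 start had the C/EBP letters TTGCATAA 85 to 78 bases before it. No match was found at the first Il33 start or in the Il1b window. All 10 members had at least 1 RefSeq start, 14 in total. Among them, the NF-kB letters were found for 1 member, the STAT letters for 0, the C/EBP letters for 4 (Il6, Il33, Il1r1 and Il1rl1) and the AP-1 letters for 1. Of all 32851 mouse RefSeq starts, 1.07% had the NF-kB letters in a window of the same length, 7.02% the STAT letters, 9.56% the C/EBP letters and 6.75% the AP-1 letters. These shares are per start, whereas the members were counted per gene over their 14 starts, so the figures are not directly comparable. A match of letters is not a measured binding site.

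Values are FPKM (the number of fragments relative to exon length and library size), which are scaled by gene length. The length is that of all annotated exons of a gene together, from 1031 bases for Il18 to 12113 for Osmr among the members. It is not the length of the transcripts that were expressed. Levels of different genes, their order and their ratios are therefore only approximate. Whole read numbers were recovered from the FPKM, and totalled 13076772 to 15574914 per Chow library and 13461735 to 16027084 per HFpEF library. HFpEF_3 stood apart from the other libraries. On the first principal component, which took 42.3% of the variance, it lay at 75.5, against 11.6 and 12.7 for the other HFpEF libraries and -35.8 to -31.7 for Chow. Mitochondrially encoded genes took 7.17% of its reads and 20.1% to 26.0% in the other 5 libraries. Ventricular cardiomyocyte markers were abundant in every library. Atrial cardiomyocyte markers were also present, at a summed 548 FPKM in Chow_3, 2321 in HFpEF_1 and 3858 in HFpEF_2, against 22.1 to 26.0 in the other 3 libraries. These high sums are at odds with a source in the left ventricle alone and were not spread evenly over the groups. The labels give no dissection, and where these markers came from was not tested. Fold changes that HFpEF_3 moved by over 1.5 times are given with and without it.

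In Chow myocardium Il6st, Lifr and Il1r1 were more abundant than every ligand, whereas Il33 overlapped Osmr and Tnf and Il18 exceeded Il1rl1 on average. Mean FPKM ran from 23.8 for Il6st through 7.41 for Lifr, 3.38 for Il1r1, 2.67 for Il33, 2.26 for Osmr, 0.611 for Tnf, 0.511 for Il18, 0.363 for Il1rl1 and 0.155 for Il1b to 0.0351 for Il6. Of neighbours in that order, Il33 and Osmr, Tnf and Il18, and Il18 and Il1rl1 overlapped in their ranges over the 3 libraries. In HFpEF, Il33 at 9.56 and Il1r1 at 8.16 stood directly after Il6st at 28.7, ahead of Lifr at 6.98. In HFpEF only Il6st against Il33 and Lifr against Osmr did not overlap with the next gene in the order.

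**Figure D1:**
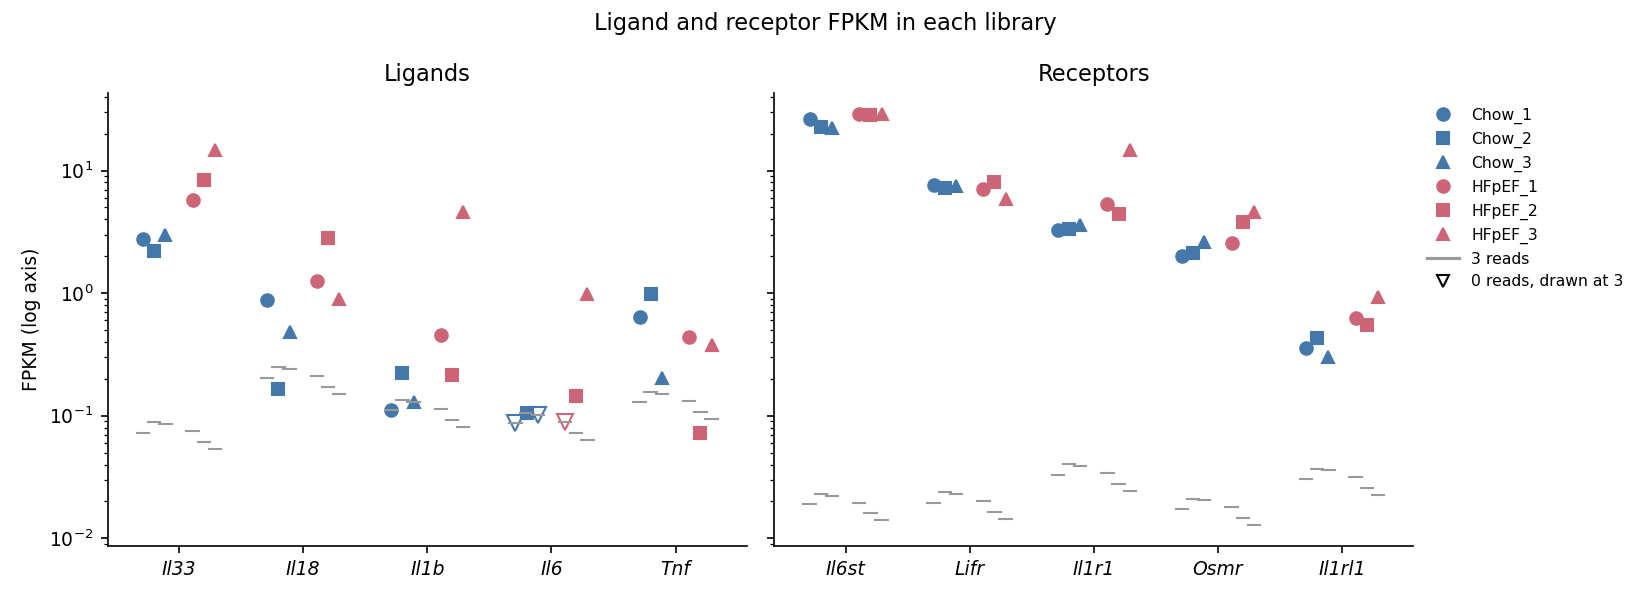
FPKM of each ligand and receptor in each library, on a log axis. Points are libraries (1 mouse each), grey dashes mark the FPKM that 3 reads would give in that library, and open triangles are libraries with 0 reads, drawn at that limit. The HFpEF points of Il33 lie at 5.73 to 14.6, all above the Chow points at 2.21 to 3.01, whereas Il6 is at or under the limit in 4 of 6 libraries.

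Of the 10 members, 7 passed the expression minimum (3 or more libraries with FPKM of 0.5 or above) and entered the limma fit of 14227 genes, while Il1b, Il6 and Tnf did not. After Benjamini-Hochberg adjustment across the whole fit, the adjusted p was under 0.05 for 0 of these 7 members, as against 0.0984% of all tested genes. The study's thresholds for a DEG add a minimum absolute log2 fold change of 2. In this limma fit on FPKM they were passed by 0.0562% of all tested genes. The study tested with DESeq2 and reported a larger number of DEGs, so the results of the fits are not directly comparable. At an unadjusted p under 0.05, 5 members (Il33, Il18, Il1r1, Il6st and Osmr) were higher in HFpEF and 0 were lower, where 10.2% of all tested genes were higher and 13.1% lower. That count of 5 was 3 without Chow_1, 1 without Chow_2, 2 without Chow_3, 3 without HFpEF_1, 2 without HFpEF_2 and 4 without HFpEF_3. Every HFpEF library lay above every Chow library for 5 members (Il33, Il18, Il1r1, Il1rl1 and Il6st), and for 15.5% of all tested genes. Il1rl1 passed the minimum through its HFpEF libraries alone, and Il18 through these and 1 Chow library, so their separation was partly set by that minimum. The median log2 fold change of the 7 members was 0.77, which is the estimate of Il1rl1. It was therefore partly set by that minimum too. The median of all tested genes was -0.01, and no shift of the members is read from this difference. HFpEF_3 held the highest value of the 6 libraries for 6 of the 10 members, and for 30.5% of all tested genes.

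Il33, an alarmin that signals through the receptor encoded by Il1rl1, is located at chr19:29925114-29960718 on GRCm38. It had 2.77, 2.21 and 3.01 FPKM in Chow_1, Chow_2 and Chow_3, and 5.73, 8.32 and 14.6 FPKM in HFpEF_1, HFpEF_2 and HFpEF_3. The groups did not overlap, and the lowest HFpEF library was 1.90 times the highest Chow library. Chow averaged 2.67 ± 0.408 FPKM (SD, n = 3) and HFpEF 9.56 ± 4.57 FPKM (SD, n = 3), which is 3.59 times as much. The limma log2 fold change was 1.71 (SE 0.33, 95% interval 0.91 to 2.50) with an adjusted p of 0.0989. Il33 was the only member whose call at an adjusted p under 0.05 depended on 1 library. Its unadjusted limma p was 0.00040 to 0.0077 when 1 library was left out. Without HFpEF_3 its log2 fold change was 1.35 and its limma adjusted p 0.0202, within a range of 0.0202 to 0.34 over all alternatives. In that fit 1188 genes passed, against 14 in the fit of all 6 libraries.

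Il18, an interferon-gamma-inducing cytokine at chr9:50554827-50581840, was expressed at a low level. It had 0.885, 0.165 and 0.481 FPKM in Chow, which correspond to 13, 2 and 6 reads. In HFpEF it had 1.26, 2.81 and 0.904 FPKM, or 18, 49 and 18 reads. HFpEF_2 was the highest library, and the lowest HFpEF library exceeded the highest Chow library by a factor of 1.02. The limma log2 fold change was 1.57 (SE 0.59, 95% interval 0.14 to 2.99) with an adjusted p of 0.189. The unadjusted limma p was 0.0355, and Il18 did not pass after adjustment over all tested genes. The Chow libraries alone spanned a 5.36-fold range.

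Il1b, Il6 and Tnf, the classical inflammatory cytokines, were too low in most libraries for the fit, and their levels were set against the FPKM that 3 reads would give. Il1b, at chr2:129364570-129371139, had 3, 5 and 3 reads in Chow (0.110, 0.223 and 0.130 FPKM) and 12, 7 and 169 reads in HFpEF (0.454, 0.217 and 4.59 FPKM). HFpEF_3 was 10.1 times the next library, and HFpEF_2 lay within the Chow range. The limit of 3 reads was 0.0814 to 0.134 FPKM, so the Chow libraries were at or just above it. Summed reads, scaled by the library size implied by the FPKM, were 13.0 times higher in HFpEF (95% counting interval 7.09 to 26.5). Without HFpEF_3 they were 2.14 times higher (0.966 to 4.97), an interval that includes 1 under this scaling. The implied library size was under the recovered reads in each Chow library and over them in each HFpEF library. Scaling by recovered reads would raise these ratios and was not done. The exact two-sided permutation test over the 6 libraries gave p = 0.2, where 0.1 is the smallest that 3 mice against 3 allow. Il1b shares 25 exonic bases with the antisense gene Il1bos, and it is not stated whether counting used strand.

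Il6, at chr5:30013114-30019981, was detected in 3 of 6 libraries. It had 0, 3 and 0 reads in Chow and 0, 6 and 46 reads in HFpEF, that is 0.146 FPKM in HFpEF_2 and 0.981 FPKM in HFpEF_3. The limit of 3 reads was 0.0640 to 0.105 FPKM, and both Chow_1 and Chow_3 as well as HFpEF_1 had no read at all. Chow and HFpEF overlapped. The ratio of summed reads, scaled as for Il1b, was 13.2 (95% counting interval 4.26 to 65.9), resting on 46 of 52 HFpEF reads in HFpEF_3. Without that library it was 2.47 (0.528 to 15.3). The exact two-sided permutation test gave p = 0.4. A difference in Il6 between Chow and the other HFpEF libraries was not detectable at this depth.

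Tnf, at chr17:35199381-35202007, showed no such increase in HFpEF_3. It had 15, 19 and 4 reads in Chow (0.643, 0.988 and 0.202 FPKM) and 10, 2 and 12 reads in HFpEF (0.441, 0.0720 and 0.379 FPKM). Chow averaged 0.611 ± 0.394 FPKM (SD, n = 3) and HFpEF 0.297 ± 0.197 FPKM (SD, n = 3). The groups overlapped, and the exact two-sided permutation test gave p = 0.3. These intervals and limits cover counting error only.

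**Figure D2:**
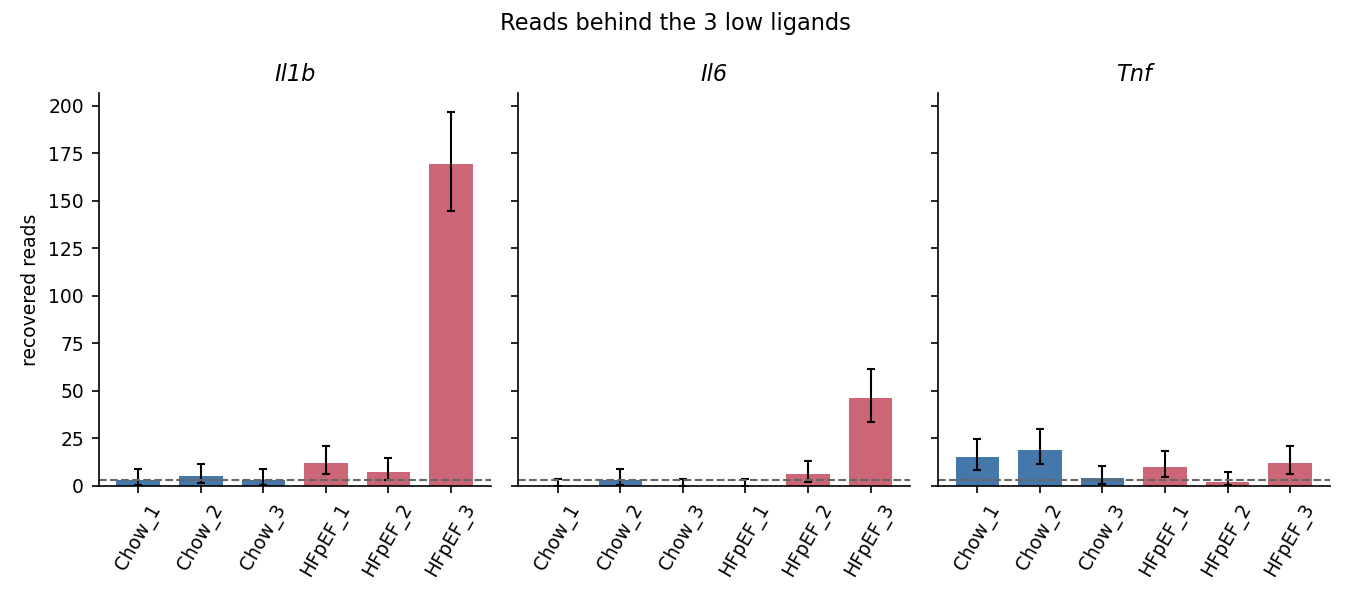
Recovered reads of Il1b, Il6 and Tnf in each library. Bars start at 0, error bars are exact 95% Poisson intervals for counting error, and the dashed line marks 3 reads. HFpEF_3 holds 169 reads of Il1b and 46 of Il6, but 12 of Tnf, fewer than Chow_1 and Chow_2 with 15 and 19.

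Among the receptors, Il1r1 encodes the signaling receptor for interleukin-1 and is located at chr1:40225080-40317257. It had 3.24, 3.32 and 3.57 FPKM in Chow and 5.35, 4.44 and 14.7 FPKM in HFpEF. All HFpEF libraries were higher than all Chow libraries, and HFpEF_3 was 2.75 times the next one. The limma log2 fold change was 1.04 (SE 0.43, 95% interval 0.02 to 2.06, adjusted p = 0.209). Without HFpEF_3 it was 0.51, with an adjusted p of 0.0572, within a range of 0.0572 to 0.412 over all alternatives. Chow libraries differed among themselves by a factor of only 1.10.

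Il1rl1, the receptor for Il33 also known as ST2, is located at chr1:40429570-40465415 near Il1r1. It had 0.357, 0.433 and 0.300 FPKM in Chow and 0.629, 0.548 and 0.924 FPKM in HFpEF, from 25 to 35 reads per Chow library. The HFpEF libraries were all higher. The limma log2 fold change was 0.77 (SE 0.35, 95% interval -0.07 to 1.61, adjusted p = 0.242), an interval that includes 0. The ratio of Il33 to Il1rl1 was 7.78, 5.12 and 10.03 in Chow and 9.12, 15.2 and 15.8 in HFpEF, and the groups overlapped.

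Il6st, which encodes the shared subunit gp130, was the most abundant member in every library. At chr13:112464070-112510086, it had 26.3, 22.6 and 22.4 FPKM in Chow and 28.9, 28.3 and 28.9 FPKM in HFpEF. The groups did not overlap, yet the ratio of means was 1.21 and the limma log2 fold change 0.27 (SE 0.10, 95% interval 0.03 to 0.52, adjusted p = 0.189). HFpEF_3 was not apart from the other HFpEF libraries for this gene. Osmr, the oncostatin M receptor subunit at chr15:6813577-6874969, had 2.00, 2.13 and 2.64 FPKM in Chow and 2.57, 3.80 and 4.59 FPKM in HFpEF. HFpEF_1 lay just below Chow_3, so the groups overlapped. The limma log2 fold change of Osmr was 0.64 (SE 0.23, 95% interval 0.08 to 1.20, adjusted p = 0.182).

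Lifr, the leukemia inhibitory factor receptor at chr15:7090614-7197489, had 7.61, 7.21 and 7.41 FPKM in Chow and 7.02, 8.08 and 5.84 FPKM in HFpEF. HFpEF values lay on both sides of the Chow range. The limma log2 fold change was -0.10 (SE 0.14, 95% interval -0.42 to 0.23, adjusted p = 0.676), and without HFpEF_3 it was 0.02. Among these receptors Lifr alone had a negative estimate.

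**Figure D3:**
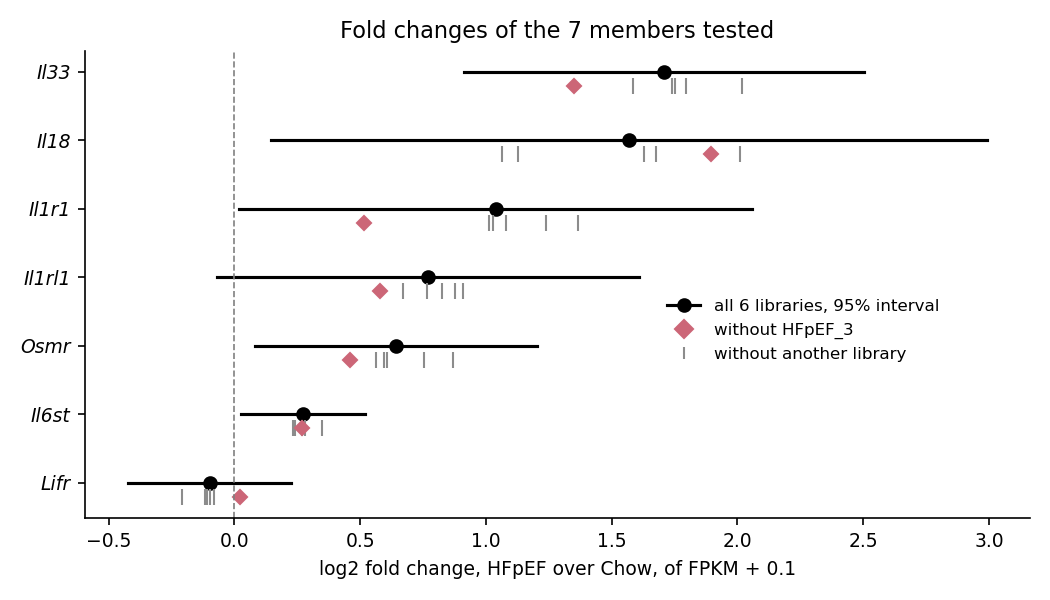
Log2 fold change (HFpEF over Chow, of FPKM + 0.1) of the 7 members that passed the minimum. Black points with bars are the limma estimates from all 6 libraries with 95% intervals, red diamonds the estimates without HFpEF_3 and grey ticks those without another library. The diamond lies left of the black point for Il33 (1.35 against 1.71) and Il1r1 (0.51 against 1.04), right of it for Il18 (1.90 against 1.57) and on the other side of 0 for Lifr.

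Set against each other within a library, the receptors outweighed the ligands less in HFpEF. The summed FPKM of the 5 receptors was 8.96, 9.66 and 9.51 times that of the 5 ligands in Chow, and 5.64, 3.91 and 2.56 times in HFpEF. Chow ratios averaged 9.38 ± 0.369 (SD, n = 3) and HFpEF ratios 4.04 ± 1.54 (SD, n = 3), with no overlap and no test, since the sum was made over chosen genes. Both sums were larger in HFpEF. Ligands totalled 3.70 to 4.41 FPKM in Chow and 7.89, 11.6 and 21.5 FPKM in HFpEF, while receptors totalled 35.7 to 39.5 FPKM in Chow and 44.5, 45.2 and 54.9 FPKM in HFpEF. Il33 made up 59.9% to 78.7% of the ligand sum over the 6 libraries. The share of Il1b was 1.87% to 6.04% in 5 libraries and 21.4% in HFpEF_3. Il6st made up 52.6% to 66.6% of the receptor sum, with the lowest share in HFpEF_3, where Il1r1 took 26.8% as against 8.21% to 12.0% in the others.

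In a bulk sample, more cells of a type and more RNA per cell cannot be told apart. Fibroblast markers, 10 genes of which 6 were higher at an unadjusted p under 0.05 and 0 lower, summed to 730 to 917 FPKM in Chow and 1353, 1417 and 6235 FPKM in HFpEF. Macrophage markers, 12 genes of which 4 were higher and 0 lower, summed to 227 to 289 FPKM in Chow and 282, 382 and 943 FPKM in HFpEF. Of all tested genes, 10.2% were higher and 13.1% lower at that unadjusted p. The 8 ventricular cardiomyocyte markers summed to 15129 to 16643 FPKM in Chow and 10721, 11369 and 7235 FPKM in HFpEF. The 8 endothelial markers summed to 204 to 223 FPKM in Chow and 167 to 184 FPKM in HFpEF. Neutrophil markers summed to 1.40 to 4.26 FPKM in Chow and 1.39 to 4.37 FPKM in HFpEF. Of these 10 genes, 2 were tested and 0 had an unadjusted p under 0.05. The granulocyte genes Ly6g and Ngp, chosen after their values were seen, had 0 reads in every library, whereas Csf3r, the granulocyte colony-stimulating factor receptor, had 34, 32 and 8 reads in Chow and 30, 58 and 177 reads in HFpEF. Mast cell markers summed to 8.68 to 11.1 FPKM in Chow and 13.3 to 16.97 FPKM in HFpEF, and those of T, NK and innate lymphoid cells to 1.84 to 3.15 FPKM and 3.02 to 7.27 FPKM. Mesothelial and epicardial markers summed to 18.7 to 29.3 FPKM in Chow and 36.4, 131 and 58.6 FPKM in HFpEF. Of these 6 genes, 3 were higher and 0 lower at an unadjusted p under 0.05. Relative to Pdgfra, a receptor of fibroblasts, Il33 was at 0.340, 0.278 and 0.479 in Chow and at 0.509, 0.718 and 1.13 in HFpEF, without overlap, but this marker was chosen after the data were seen. Over each of the 10 fibroblast markers in turn, the Il33 ratio was higher in every HFpEF library for 4 markers (Pdgfra, Dcn, Tcf21 and Gsn) and overlapped for 6. In HFpEF_3, Il33 over the collagen gene Col1a1 was 0.00649, against 0.0866 to 0.121 in the other 5 libraries. The ratio of Il1r1 to Pdgfra was 0.398, 0.417 and 0.569 in Chow and 0.475, 0.383 and 1.13 in HFpEF, with overlap, and over the 10 markers it overlapped for 7 and was lower in HFpEF for 3. For Il1rl1 the ratio to Pdgfra was 0.0437, 0.0543 and 0.0478 in Chow and 0.0558, 0.0473 and 0.0711 in HFpEF, with overlap. Over the 10 markers the Il1rl1 ratio overlapped for 6, was lower in HFpEF for 4 and was higher for 0. Il1b relative to Csf1r, the macrophage receptor for colony-stimulating factor, was 0.00675 to 0.0147 in Chow, 0.0254 in HFpEF_1, 0.00934 in HFpEF_2 and 0.121 in HFpEF_3. The part of cell content in the members' values was otherwise not tested.

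**Figure D4:**
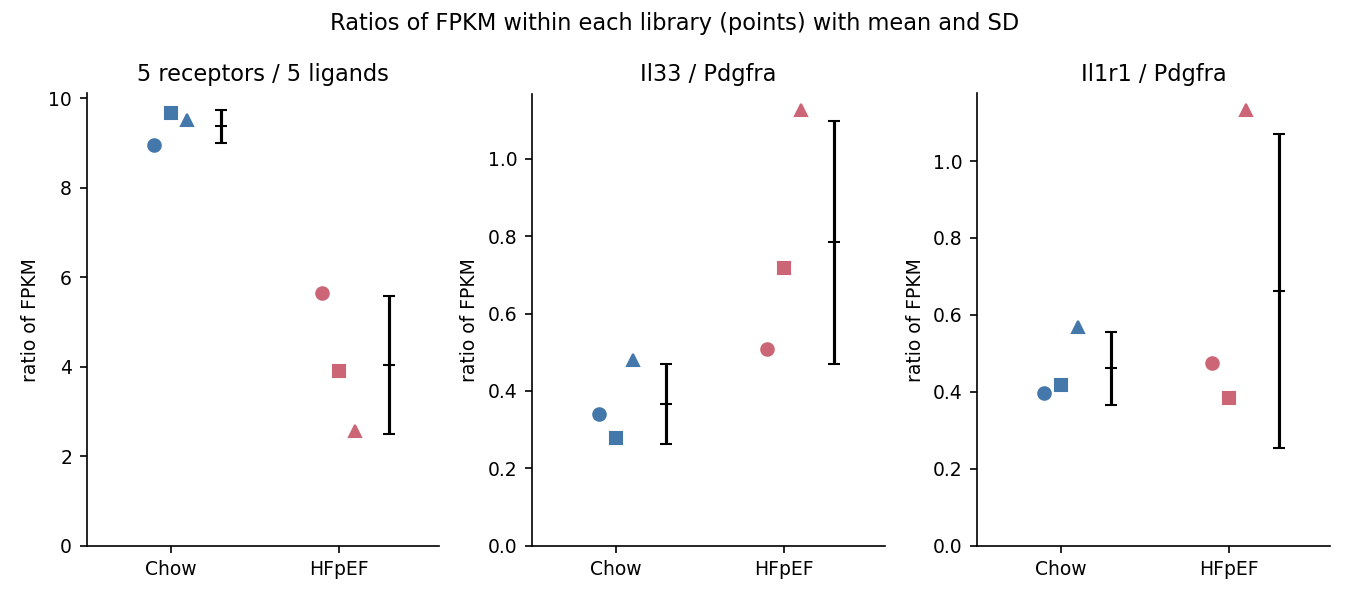
Ratios of FPKM within each library, for the 5 receptors over the 5 ligands and for Il33 and Il1r1 over the fibroblast gene Pdgfra. Points are libraries with the marker shapes circle, square and triangle for replicates 1, 2 and 3, and black bars give mean and SD (n = 3). The receptor to ligand ratio is 8.96 to 9.66 in Chow and 2.56 to 5.64 in HFpEF, and Il1r1 over Pdgfra stands out in HFpEF_3 alone.

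The other genes of these pathways were described from 8 lists, which besides the members hold 91 genes, 72 of them tested. At an unadjusted p under 0.05, 13 of the 72 were higher in HFpEF and 6 lower, where 10.2% of all tested genes were higher and 13.1% lower. Of the 72, 0 passed the adjusted p, and the median log2 fold change was 0.22. Around interleukin-1, the shared co-receptor Il1rap had 0.773, 0.615 and 0.677 FPKM in Chow and 0.884, 1.16 and 1.08 FPKM in HFpEF (log2 fold change 0.53, limma adjusted p = 0.22). The interleukin-18 receptor chain Il18r1 had 0.437, 0.495 and 0.360 FPKM in Chow and 0.525, 3.28 and 1.35 FPKM in HFpEF, where HFpEF_2 was highest, as for Il18. The summed mesothelial and epicardial markers and the summed atrial markers were also highest in HFpEF_2. Whether tissue content is linked to these values was not tested. Sigirr, a negative regulator of the family, overlapped between groups, at 2.40 to 3.44 FPKM in Chow and 2.06 to 2.74 FPKM in HFpEF. The soluble antagonist Il1rn and the decoy receptor Il1r2, both chosen after their values were seen, had 0 to 4 reads in each of the other 5 libraries but 28 and 20 reads in HFpEF_3.

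Of the 23 genes of interleukin-1 receptor and NF-kB signaling, 2 were higher and 3 lower at an unadjusted p under 0.05. Of all tested genes, 10.2% were higher and 13.1% lower. The median log2 fold change of the 23 genes was 0.20. The adaptor Myd88 had 4.91, 5.33 and 4.37 FPKM in Chow and 5.30, 7.15 and 8.04 FPKM in HFpEF (log2 fold change 0.46, limma adjusted p = 0.19). Nfkbiz, an atypical IkB protein induced by interleukin-1, had 1.33 to 1.75 FPKM in Chow and 2.39, 2.85 and 6.14 FPKM in HFpEF (1.13, adjusted p = 0.148, and 0.73 without HFpEF_3). The inhibitory adaptor Tollip was lower, at 17.8 to 19.0 FPKM in Chow and 14.4 to 16.3 FPKM in HFpEF (-0.27, adjusted p = 0.17). The NF-kB subunit Rela had 18.2 to 18.7 FPKM in Chow and 20.4 to 23.2 FPKM in HFpEF, whereas the inhibitor Nfkbia overlapped completely, at 19.5 to 25.4 and 19.0 to 27.97 FPKM.

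Of the 10 inflammasome and processing genes, 8 were tested, and 3 were higher and 0 lower at an unadjusted p under 0.05. Of all tested genes, 10.2% were higher and 13.1% lower. Casp4, the caspase of the non-canonical inflammasome, had 0.757, 0.505 and 0.825 FPKM in Chow and 1.71, 1.81 and 2.41 FPKM in HFpEF (log2 fold change 1.39, limma adjusted p = 0.096). The pore-forming effector Gsdmd had 4.73 to 5.38 FPKM in Chow and 5.92, 9.06 and 11.7 FPKM in HFpEF (0.75, adjusted p = 0.156), and the ATP-gated channel P2rx7 had 1.47 to 1.68 and 2.23 to 3.35 FPKM (0.69, adjusted p = 0.126). The groups did not overlap for these 3 genes. They overlapped for Casp1, which cleaves the precursors of Il1b and Il18, at 1.44 to 2.53 FPKM in Chow and 2.37 to 4.63 FPKM in HFpEF, and for Nek7 and Casp8. Of the 10 genes, 4 (Casp4, Gsdmd, P2rx7 and Nlrp3) were higher in every HFpEF library than in every Chow library, as were 15.5% of all tested genes. Nlrp3, chosen after its values were seen, did not pass the expression minimum. It had 4 to 11 reads per Chow library and 14 to 38 per HFpEF library.

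Of the 11 interleukin-6 family ligands, 4 were tested. Ctf1, which encodes the cardiac growth cytokine cardiotrophin-1, was lower in HFpEF, with 5.08, 6.54 and 5.53 FPKM in Chow and 4.08, 4.17 and 3.09 FPKM in HFpEF (log2 fold change -0.59, limma adjusted p = 0.127). Oncostatin M itself (Osm) and Lif, both chosen after their values were seen, had at most 6 and 11 reads in the other 5 libraries and 27 and 48 reads in HFpEF_3. Among the receptors, Cntfr, the ligand-binding chain for ciliary neurotrophic factor, had 1.92, 1.62 and 1.75 FPKM in Chow and 5.76, 7.53 and 3.28 FPKM in HFpEF, with the lowest HFpEF value in HFpEF_3 (1.51, adjusted p = 0.0989). The interleukin-11 receptor Il11ra1 had 16.4 to 18.1 FPKM in Chow and 18.3 to 22.2 FPKM in HFpEF. Il6ra, the interleukin-6 binding chain, chosen after its values were seen, had 1.15, 1.49 and 0.919 FPKM in Chow and 1.08, 1.98 and 2.75 FPKM in HFpEF, with overlap, so that Il6st exceeded it 10.5-fold to 26.8-fold in every library.

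Of the 13 JAK-STAT3 genes, 4 were higher and 2 lower at an unadjusted p under 0.05, where 10.2% of all tested genes were higher and 13.1% lower. Stat3, the main transcription factor downstream of gp130, had 13.0, 12.7 and 13.9 FPKM in Chow and 18.0, 17.3 and 18.4 FPKM in HFpEF (log2 fold change 0.43, limma adjusted p = 0.102), with little spread and no outlying library. The feedback inhibitor Socs3, chosen after its values were seen, had 1.52 to 2.21 FPKM in Chow and 2.62, 5.84 and 16.6 FPKM in HFpEF (1.67, adjusted p = 0.185, and 0.98 without HFpEF_3). Socs2, a related inhibitor, had 2.72 to 3.68 FPKM in Chow and 4.46 to 4.58 FPKM in HFpEF (0.48, adjusted p = 0.131). Pias3, an inhibitor of Stat3, had 3.80 to 4.64 and 5.42 to 6.95 FPKM (0.53, adjusted p = 0.12). The kinase Jak1 was lower, with 28.01 to 35.6 FPKM in Chow and 23.4 to 26.6 FPKM in HFpEF (-0.31, adjusted p = 0.208).

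Around Tnf, 15 of 17 genes were tested, 1 was higher and 0 were lower at an unadjusted p under 0.05. Of all tested genes, 10.2% were higher and 13.1% lower. The higher gene around Tnf was the adaptor Tradd, with 2.44 to 3.39 FPKM in Chow and 3.60, 4.46 and 5.91 FPKM in HFpEF (log2 fold change 0.62, limma adjusted p = 0.171). Both Tnf receptors were more abundant than Tnf. Tnfrsf1a had 21.1 to 24.0 FPKM in Chow and 23.7, 28.9 and 43.7 FPKM in HFpEF, with overlap. Tnfrsf1b had 4.01 to 4.53 FPKM in Chow and 4.71, 6.65 and 13.6 FPKM in HFpEF, and the highest library was HFpEF_3 in both cases.

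Target genes were taken from 2 further lists. Of all tested genes, 10.2% were higher and 13.1% lower at an unadjusted p under 0.05, and 0.0984% passed the adjusted p. Of 16 Stat3 targets, 15 were tested, 7 were higher and 0 lower at an unadjusted p under 0.05, and 1 passed the adjusted p, with a median log2 fold change of 0.98. Hp, the acute-phase protein haptoglobin, which adipocytes and liver also produce, rose from 0.656, 0.531 and 0.412 FPKM in Chow to 9.40, 13.5 and 25.2 FPKM in HFpEF (log2 fold change 4.57, SE 0.36, limma adjusted p = 0.0222), but did not pass without any 1 of the Chow libraries, at adjusted p of 0.119 to 0.166. Adipocyte markers went both ways. No Chow library held a read of Adipoq, Cidec or Cfd. These genes had 51 to 591 reads per HFpEF library and passed the expression minimum through HFpEF alone, as did Plin1, chosen after its values were seen, with at most 1 read in Chow. Fabp4, a fatty acid binding protein, had 84.3 to 94.8 FPKM in Chow and 60.5 to 69.8 FPKM in HFpEF, Plin4 overlapped between groups, and the summed FPKM of the 8 markers was 111 to 124 in Chow and 117 to 154 in HFpEF. Their part in the level of Hp was not tested. Timp1, an inhibitor of matrix metalloproteinases, had 1.27 to 1.44 FPKM in Chow and 4.23, 6.71 and 55.4 FPKM in HFpEF (3.04, adjusted p = 0.139, and 1.92 without HFpEF_3). Serpina3n, a secreted protease inhibitor, had 4.29 to 6.13 FPKM in Chow and 9.59, 11.5 and 26.2 FPKM in HFpEF (1.39, adjusted p = 0.126). Of 16 NF-kB targets, 11 were tested, 2 were higher and 1 lower, with a median of 0.46. The adhesion molecule Vcam1 had 2.98 to 3.49 FPKM in Chow and 4.66, 4.95 and 9.01 FPKM in HFpEF (0.84, adjusted p = 0.146, and 0.54 without HFpEF_3). Sod2, the mitochondrial superoxide dismutase, was lower, with 60.1 to 60.9 FPKM in Chow and 43.9, 44.5 and 24.0 FPKM in HFpEF (-0.75, adjusted p = 0.159, and -0.46 without HFpEF_3).

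**Figure D5:**
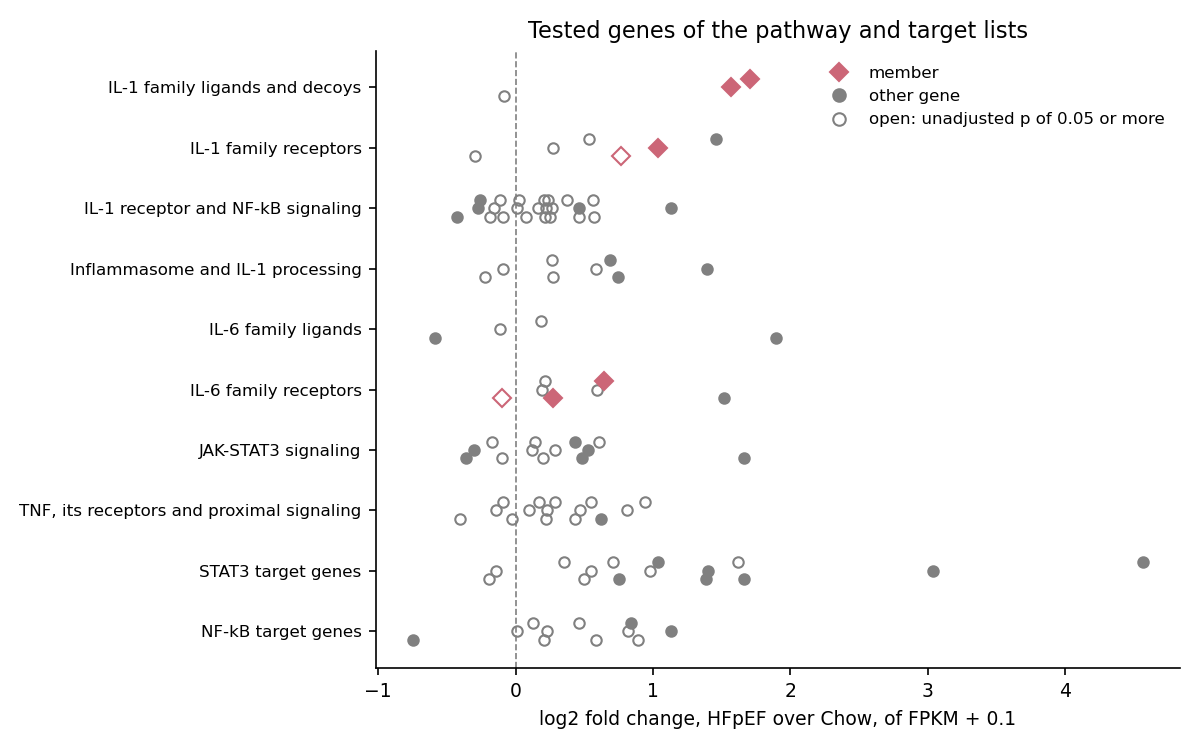
Log2 fold changes (HFpEF over Chow, of FPKM + 0.1) of the tested genes in the 8 pathway lists and 2 target lists. Diamonds are members, circles other genes, and filled symbols have an unadjusted p under 0.05. Hp at 4.57 and Timp1 at 3.04 lie farthest to the right, and the signaling lists lie around their medians of 0.20.

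The protein-coding genes whose pattern over the 6 libraries was closest to each tested member were found by Pearson correlation of log2 values among 10994 genes. The pattern of Il33 was nearest to those of Wls and Tns3 (both r = 0.995), and Wls had 7.82, 6.71 and 7.47 FPKM in Chow and 10.4, 11.7 and 14.7 FPKM in HFpEF. Il1r1 was nearest to Tgfbr1 (r = 1.00) and Afap1 (r = 0.999), each highest in HFpEF_3, and 526 genes had r over 0.95 with it. Il1rl1 was nearest to Zfp36l2 and Ppm1m (both r = 0.999). Il18 was nearest to Cryzl2 (r = 0.991) and Tmem33 (r = 0.990), and 23 genes had r over 0.95 with it. Il6st was nearest to Ssu2 and Tacc1 (both r = 0.994), Osmr to P4ha1 (r = 0.993) and B2m (r = 0.992), and Lifr to Xrcc5 (r = 0.997) and Abhd6 (r = 0.994). These values describe 6 libraries that share 1 split into groups and 1 library that stood apart.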

How the data were processed

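Total RNA from the hearts of 3 Chow and 3 HFpEF mice (distinct animals, left ventricular myocardium by the study's methods) was sequenced. Groups were taken from the sample labels. The authors made libraries with a SMARTER mRNA-Seq kit, aligned reads with HISAT2 2.0.5, counted them with featureCounts 1.5.0-p3 and deposited FPKM per gene. GRCm38 is named in the submitters' processing notes, and the strandedness of counting is not given in the sources used here.

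Whole reads were recovered from FPKM and the exon length in GENCODE M21, where 96.1% to 96.2% of the values above 0 were whole at a relative tolerance of 1e-06. The deposited FPKM carry a scaling between libraries already, since median-of-ratios factors were 0.999 to 1.00. FPKM were rescaled by these factors, and log2(FPKM + 0.1) was fitted with limma (lmFit, eBayes with trend and robust options) for genes that reached 0.5 FPKM in 3 or more libraries. Fold changes on this scale understate the change of low genes. As in the study, a DEG needed an adjusted p (Benjamini-Hochberg) under 0.05 together with a log2 fold change of 2 or more in either direction. For members under the minimum, mean FPKM was compared in a two-sided exact permutation test. Intervals of reads are exact Poisson intervals, and those of read ratios are exact at 95%. Read ratios were scaled by the library size implied by the FPKM and not by recovered reads. This size was 11734336 to 14239712 in Chow and 13847565 to 19316914 in HFpEF. The fit was tested on simulated data.

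The members and lists were chosen with earlier results of these data known. Named genes were the members and, of each list, those with adjusted p under 0.05, up to 4 of the highest mean FPKM and up to 3 of the smallest p. Of these, the text gives a selection made after their values were seen. For each tested member the 2 most correlated protein-coding genes with mean FPKM of at least 1 were also named. The alternatives were no rescaling, quantile normalization, a pseudocount of 1 or 0.01, no filter, a minimum of 1 FPKM or of 10 reads, eBayes without trend or robust options, voom on recovered reads, a replicate block and leaving out each library. Ratios to Pdgfra, to the other fibroblast markers and to Csf1r were added after seeing the data. Software was R 4.3.3 (limma 3.58.1) and Python 3.11.15 (scipy 1.17.1, numpy 2.4.6, matplotlib 3.10.9, pandas 2.3.3). Values of 1 further list gene are left out. Other assays of the study were not analysed here.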

Additional observations from a re-analysis of the deposited data

How the results depend on the processing

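For the 35 tested pathway and target genes named in the text, 7 of them members, 539 of 556 estimates under 16 alternatives kept their direction and their side of an adjusted p of 0.05. The count of genes with an adjusted p under 0.05 (14) was 3 with a pseudocount of 1, 5 with 0.01, 39 with a minimum of 10 reads, 33 without the trend and robust options and 0 with voom, and 2 to 1188 when 1 library was left out. The count of DEGs (8) was 2, 3, 14, 19 and 0 under these in the same order, 5 with a minimum of 1 FPKM, and 2 to 59 when 1 library was left out. The highest counts came without HFpEF_3. Members with an adjusted p under 0.05 numbered 0 to 1 when 1 library was left out, and 0 under all other alternatives. Members with an unadjusted p under 0.05 (5) numbered 2 with quantile normalization and 1 to 4 when 1 library was left out, the lowest without Chow_2. With voom they numbered 4.

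The log2 fold change of Lifr ran from -0.21 to 0.022 when 1 library was left out, positive without HFpEF_3. That of Nfkbia (0.01) ran from -0.15 to 0.13, negative without Chow_1 or HFpEF_2. Hp no longer passed with a pseudocount of 1 (limma adjusted p = 0.063), with voom (0.0782) or without any 1 of the Chow libraries (0.119 to 0.166). Casp4, Cntfr, Stat3, Serpina3n, Timp1, Vcam1 and Sod2, besides Il33, passed without HFpEF_3. Receptor reads were 41.2 times ligand reads in Chow and 17.02 times in HFpEF, where gene length is not taken into account. Same-numbered Chow and HFpEF libraries did not deviate together (r = -0.04, -0.07 and -0.06), so the numbers do not pair the mice. With a replicate block, 2 genes passed the adjusted p, 2 were DEGs, 3 members had an unadjusted p under 0.05, and Hp had an adjusted p of 0.194.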
